A study of Mus musculus with 6 samples.

Results

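Fibrillar collagens are made in the endoplasmic reticulum (ER), where a small set of enzymes and chaperones modifies each chain and helps it wind into a triple helix. Described here are 10 genes of that set across 6 RNA sequencing libraries: the chaperones Fkbp10 and Serpinh1, the prolyl 4-hydroxylase subunits P4ha1 and P4ha2, the lysyl hydroxylases Plod1, Plod2 and Plod3, and the prolyl 3-hydroxylation complex of P3h1, Crtap and Ppib. They were chosen by gene symbol, and all 10 were found among the 30631 genes listed in each library. All 10 passed the filter on low values described below.

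The libraries came from mouse embryonic stem cells differentiated in hanging drops toward sinoatrial node-like cardiomyocytes, the pacemaker cells of the heart. Cells of both groups were sorted by flow cytometry for CD166, the surface protein encoded by Alcam, at stage 7+1 days, and the stem cell clones had been kept on mouse embryonic fibroblasts. A group of 3 libraries is labelled wild type (Shox2+/+) and a group of 3 is labelled Shox2-/-. Shox2 encodes a homeodomain protein needed for the pacemaker lineage, and the design asks which genes differ without it. How the Shox2-/- allele was made is not given in the sources used here. The 3 titles labelled Shox2-/- begin with the same letters and those labelled wild type with 3 different strings, so an effect of the clone and one of the genotype cannot be told apart. Separate cultures are not named in any label. The p-values therefore reflect only how far these libraries differ from each other, which may be technical.

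The reads counted on genes numbered 13504683 to 34650564 per library, and library 1 of each group was the shallowest. The values are normalized counts, that is, reads per gene after scaling each library by 1 size factor. Shox2 itself was at 89.6, 83.4 and 31.4 normalized counts under the wild type label and at 201, 548 and 373 under the Shox2-/- label. The targeted gene was therefore higher under the knockout label, and every direction below is between labels. Alcam, which encodes the sorted surface protein, was at 6591, 6526 and 5841 against 4176, 5312 and 4304. Wild type libraries 1 and 2 stood close together: 13.1% of genes with at least 20 reads differed between them beyond counting error, where 5% would be expected, against 42.5% to 64.7% in the other 14 pairs. Wild type library 3 stood apart from wild type libraries 1 and 2 in its cell type markers. Myh6, the cardiac myosin heavy chain, was at 170 there against 1495 and 1342. Low Myh6 was not particular to it, with 93.4, 507 and 781 in Shox2-/- libraries 1, 2 and 3. Dcn, a fibroblast proteoglycan, was at 13277 in wild type library 3 against 1711 and 1690 in wild type libraries 1 and 2. Other fibroblast markers were lower in wild type library 3, such as Pdgfra, a growth factor receptor, at 8389 against 14485 and 14659. The marker list therefore gives no single direction for this library. Of the cardiac markers, Tnnt2, cardiac troponin T, lay between 1332 and 2902 and Nkx2-5, a cardiac transcription factor, between 18.8 and 64.4. Postn, a matrix gene of fibroblasts, lay between 26919 and 70843.

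As background, each collagen chain carries repeats of glycine followed by proline and other residues. Prolyl 4-hydroxylase adds the hydroxyl groups that make the triple helix stable at body temperature, and lysyl hydroxylases prepare the lysines that later form crosslinks. The prolyl 3-hydroxylation complex modifies single prolines and, through Ppib, also turns proline bonds, a step that limits folding. Serpinh1, also called HSP47, binds the finished helix on its way to the Golgi, and Fkbp10, also called FKBP65, is a proline isomerase that acts as a collagen chaperone and is linked to lysyl hydroxylation. Loss of function in several of these genes causes brittle bone disease, and in the heart the set is best known from matrix-producing fibroblasts.

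Promoter windows from RefSeq (GRCm38.p6) were read for 8 of the 10 genes. Fkbp10 and Plod2 had no entry. The sequences of 4 genes are shown as examples. In the values given further below, wild type library 3 was the highest library in Serpinh1, P4ha1 and P3h1 and the lowest of its group in P4ha2. It was also the highest library in Crtap, Plod1, Plod2 and Ppib, which are not shown. Any link between a motif and this pattern was not tested. Each line is the stretch upstream of the start site that holds no annotated exon, 5′ to 3′ on the gene's own strand. Capitals mark ACGTG or, where the match is on the other strand, CACGT, the core letters of the hypoxia response element. Serpinh1 is shown over chr7:99353240-99353489 (minus strand), P4ha1 over chr10:59323046-59323295 (plus strand), P3h1 over chr4:119232713-119232914 (plus strand) and P4ha2 over chr11:54100674-54100923 (plus strand).
Serpinh1: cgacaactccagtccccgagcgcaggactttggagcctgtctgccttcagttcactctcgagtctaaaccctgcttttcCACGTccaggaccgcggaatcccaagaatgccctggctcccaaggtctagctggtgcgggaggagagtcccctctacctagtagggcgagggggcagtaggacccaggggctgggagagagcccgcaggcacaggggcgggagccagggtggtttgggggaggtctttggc
P4ha1: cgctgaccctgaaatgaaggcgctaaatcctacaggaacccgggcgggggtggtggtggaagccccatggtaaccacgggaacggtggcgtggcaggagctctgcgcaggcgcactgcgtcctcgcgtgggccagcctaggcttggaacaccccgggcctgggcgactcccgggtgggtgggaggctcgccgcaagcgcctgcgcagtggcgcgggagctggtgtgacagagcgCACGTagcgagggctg
P3h1: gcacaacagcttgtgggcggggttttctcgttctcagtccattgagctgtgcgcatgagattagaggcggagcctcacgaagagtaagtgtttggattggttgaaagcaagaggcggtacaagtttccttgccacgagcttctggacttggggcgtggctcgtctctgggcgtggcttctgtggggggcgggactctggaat
P4ha2: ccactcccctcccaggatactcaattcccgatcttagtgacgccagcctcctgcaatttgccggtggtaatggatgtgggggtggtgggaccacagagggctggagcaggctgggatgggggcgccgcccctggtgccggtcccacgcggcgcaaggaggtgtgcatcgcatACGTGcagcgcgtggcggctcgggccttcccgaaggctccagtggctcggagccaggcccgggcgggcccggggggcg

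The letters ACGTG lay 171 bases before the start of Serpinh1, 16 bases before that of P4ha1 and 78 bases before that of P4ha2, and were not in the 202 bases of P3h1 shown. In the stretches not shown, the letters were absent from the 250 bases of Crtap and of Plod1. They lay 104 and 38 bases before the start of Ppib. For P4ha2 the RefSeq start used here lies 829 bases inside the gene's annotated start. The P3h1 stretch is the whole interval between its start and that of AU022252, a gene on the opposite strand. The full windows of 300 bases run from 250 bases before to 50 bases after the start, and the 8 genes have 9 of them. ACGTG on either strand was in at least 1 window of 6 of the 8 genes. By window it was in 6 of the 9, against 19.6% of all 32851 windows. GGGCGG, the GC box, was in 7 of 8 genes, in 8 of their 9 windows and in 35.7% of all windows. TAATTA, a core that homeodomain proteins bind, was in 0 of 8 genes and 5.29% of all windows. CACGTG, the E box, whose letters contain ACGTG, was in 0 of 8 genes and 7.15% of all windows. The members' windows were richer in G and C than most, with a median of 62.3% against 52.7%. The part of base composition in these counts was not tested, and no match in a window is a measured binding site.

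Fkbp10 differed most between the groups relative to its spread. Its gene lies on chromosome 11, positions 100415697 to 100424824 (GRCm38, plus strand). It was at 4453, 4195 and 3939 normalized counts in wild type libraries 1, 2 and 3 and at 2306, 2447 and 2886 in Shox2-/- libraries 1, 2 and 3. The groups did not overlap: the lowest wild type library lay 1053 above the highest Shox2-/- library, a gap whose counting error (SD) is 72.3. The means were 4196 ± 257 and 2546 ± 302 (SD, n = 3 each), 39.5% lower under the knockout label. On the log2(value + 1) scale the difference was -0.72 (SE 0.12, 95% interval -0.996 to -0.454). By limma over the 17034 genes that reached 10 in 3 or more libraries, with Benjamini-Hochberg adjustment, the p was 0.00035 and the adjusted p 0.160, the 36th lowest p of the table, so Fkbp10 did not pass the threshold of 0.05.

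No gene passed it in this fit: 0% of the 17034 were called, and the lowest adjusted p was 0.0954. At an unadjusted p under 0.05, 7.23% of genes were lower and 6.92% higher under the knockout label. Of the 10 members, 3 were lower at that level, Fkbp10, P4ha2 and Serpinh1, and 0 were higher. All 10 members had a lower mean under the knockout label, where 48.2% of all genes tested did, and their median log2 difference was -0.41 against 0.01 over all genes tested.

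Serpinh1, the collagen-specific chaperone, was the most abundant member. Its values were 39781, 37857 and 55724 normalized counts under the wild type label and 26663, 36399 and 33247 under the knockout label. Wild type library 3 was the highest and Shox2-/- library 1 the lowest, and the other 4 libraries lay within 33247 to 39781. The means were 44454 ± 9808 and 32103 ± 4968 (SD, n = 3 each). The log2 difference was -0.46 (SE 0.19), with a limma adjusted p of 0.352, which did not pass.

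The 2 alternative catalytic subunits of prolyl 4-hydroxylase differed in where wild type library 3 stood. P4ha1, the more widely expressed subunit, was at 11271, 10912 and 17298 normalized counts under the wild type label and at 6621, 10466 and 10299 under the knockout label. As for Serpinh1, wild type library 3 stood highest and Shox2-/- library 1 lowest. P4ha2 was at 7313, 7446 and 4747 under the wild type label and at 3017, 3859 and 4703 under the knockout label. Here wild type library 3 was the lowest of its group and lay only 44.0 above Shox2-/- library 3, within the counting error of 84.9 (SD). The log2 differences were -0.53 (SE 0.24) for P4ha1 and -0.75 (SE 0.22) for P4ha2, with limma adjusted p of 0.375 and 0.266, neither past the threshold. P4hb, the protein disulfide isomerase that forms the other subunit of the enzyme, was at 28761 ± 1302 and 27405 ± 4173 (SD, n = 3 each), a log2 difference of -0.08 (SE 0.14).

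Among the lysyl hydroxylases, Plod2, which modifies the chain ends and works with Fkbp10, was at 7746, 8159 and 11034 normalized counts under the wild type label and at 4621, 8892 and 7379 under the knockout label. The groups overlapped, since Shox2-/- library 2 lay above wild type libraries 1 and 2. Plod1, which acts on the helical part of the chain, was at 1776, 1643 and 1893 against 1401, 1234 and 1730, and its groups overlapped as well. Plod3, which also adds sugars to hydroxylysine, was the steadiest member at 2035, 1960 and 1926 against 1853, 1921 and 1726. Its groups did not overlap, but by only 5.02 normalized counts where the counting error of that gap is 56.8 (SD). The log2 differences were -0.40 (SE 0.25), -0.29 (SE 0.14) and -0.11 (SE 0.09) in that order of mention, with limma adjusted p of 0.491, 0.394 and 0.620.

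In the prolyl 3-hydroxylation complex, P3h1, the catalytic subunit, was at 2340, 2215 and 3162 normalized counts under the wild type label and at 1465, 2183 and 2104 under the knockout label. Crtap, its non-catalytic partner, was at 981, 924 and 1394 against 792, 853 and 870. Both were highest in wild type library 3 and lowest in Shox2-/- library 1, and in neither did the groups overlap, with gaps of 32.6 (counting error 58.3, SD) and 53.9 (35.3). Ppib, the cyclophilin of the complex, was at 2405, 2279 and 2573 against 2074, 2487 and 2262, and its groups overlapped. The log2 differences were -0.43 (SE 0.20) for P3h1, -0.37 (SE 0.17) for Crtap and -0.09 (SE 0.11) for Ppib, with limma adjusted p of 0.379, 0.374 and 0.725.

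The groups did not overlap in 7 of the 10 members, where 10.8% of all genes tested were lower without overlap. In 3 of these 7, P4ha2, P3h1 and Plod3, the gap was smaller than its counting error. The fewest reads behind any member's value were 458 and the most 70979.

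**Figure D1:**
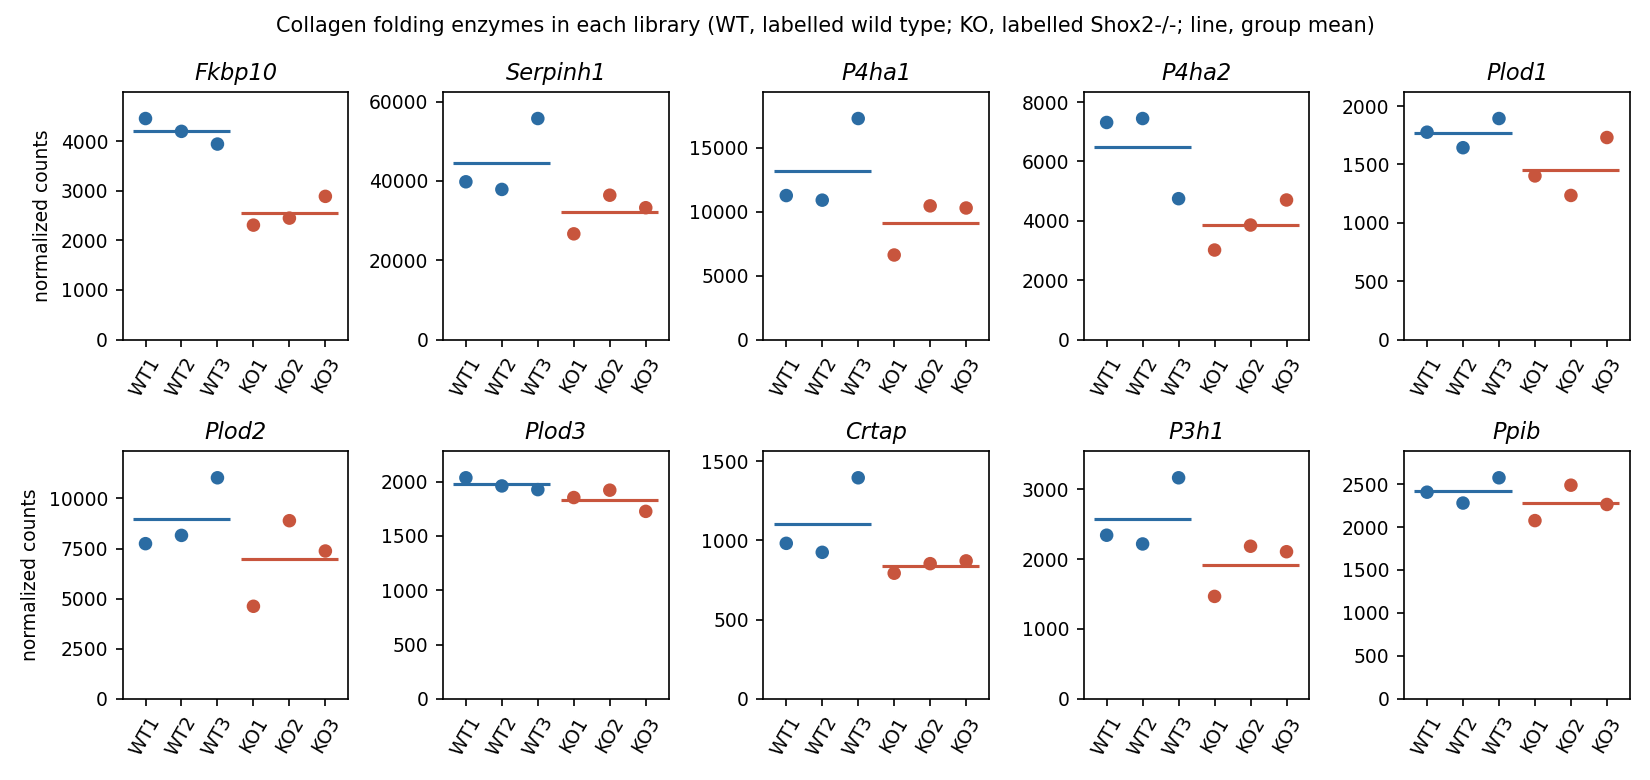
Normalized counts (vertical axis, from 0) of each of the 10 genes in wild type libraries 1 to 3 (WT1 to WT3, blue) and Shox2-/- libraries 1 to 3 (KO1 to KO3, red), with a line at each group's mean. Fkbp10 is at 3939 to 4453 in the blue points and 2306 to 2886 in the red ones, while in Serpinh1, P4ha1, P3h1 and Crtap WT3 is the highest point and KO1 the lowest.

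The members did not follow 1 course over the libraries. Relative to the mean of wild type libraries 1 and 2, wild type library 3 held 1.56 times as much P4ha1, 1.46 times as much Crtap, 1.44 times as much Serpinh1 and 1.39 times as much P3h1 and Plod2. It held 0.911 times as much Fkbp10 and 0.643 times as much P4ha2. Shox2-/- library 1 was low relative to the mean of libraries 2 and 3 of its group in Plod2 (0.568 times), P4ha1 (0.638 times), P3h1 (0.684 times) and P4ha2 (0.705 times), and near it in Plod3 (1.02 times). The members' median, on the log2 scale relative to the wild type mean, was -0.06, -0.11 and 0.21 in wild type libraries 1, 2 and 3 and -0.75, -0.28 and -0.29 in Shox2-/- libraries 1, 2 and 3.

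Wild type library 3 and Shox2-/- library 1 were also left out together, a choice made after seeing the members' own values. In Serpinh1, P4ha1, P3h1, Crtap, Plod2 and Ppib they are the highest wild type and the lowest Shox2-/- library, so that leaving them out had to shrink those differences. In Fkbp10 and P4ha2 wild type library 3 is instead the lowest of its group. The values that follow therefore describe how much rests on these 2 libraries and are no evidence for 2 kinds of member. Fkbp10 was at -0.70 (SE 0.10, limma adjusted p = 0.171) and P4ha2 at -0.79 (SE 0.11, adjusted p = 0.159), neither past the threshold. Serpinh1 came to -0.16 (SE 0.09), P4ha1 to -0.10 (SE 0.07), P3h1 to -0.09 (SE 0.07) and Crtap to -0.14 (SE 0.08). Plod1 came to -0.22 (SE 0.18) and Plod3 to -0.13 (SE 0.09), and Plod2 and Ppib turned to 0.027 (SE 0.11) and 0.019 (SE 0.08), so that 8 members were lower and their median was -0.14. With sample quality weights on the recovered reads (limma voom), which set wild type library 3 at 0.206 and wild type libraries 1 and 2 at 3.59 and 4.22, Fkbp10 was called at -0.73 (adjusted p = 0.0176) and P4ha2 at -0.89 (adjusted p = 0.0294), 2 of the 10 members, where 0.781% of genes were called lower. Those weights lean on the nearly alike wild type libraries 1 and 2. A weighted fit with these 2 averaged into 1 sample was not run. In the unweighted fit, averaging them left Fkbp10 at -0.70 and gave an adjusted p of 0.505, against 0.160 with all 6 libraries.

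**Figure D2:**
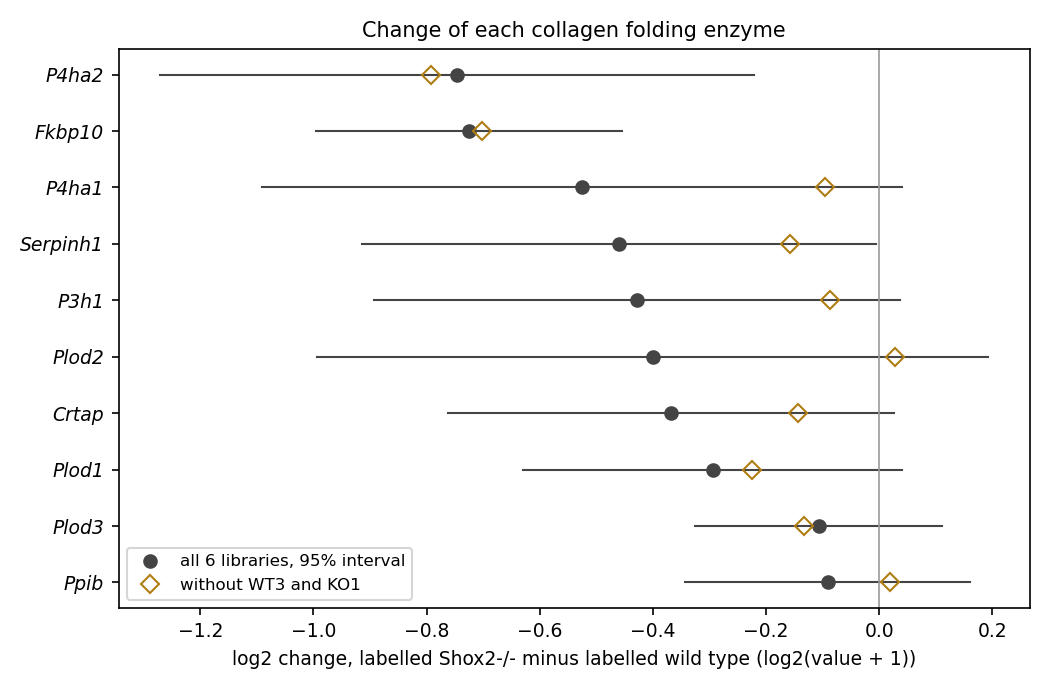
Log2 difference (horizontal axis, libraries labelled Shox2-/- minus libraries labelled wild type, on log2(value + 1)) of each gene, with all 6 libraries (filled points, bars for the 95% interval) and without wild type library 3 and Shox2-/- library 1 (open diamonds). The diamonds of Fkbp10 and P4ha2 lie at -0.70 and -0.79, near the filled points, and those of Serpinh1, P4ha1, P3h1, Plod2 and Crtap lie between -0.16 and 0.027. In these last 5 genes the libraries left out are the highest wild type and the lowest Shox2-/- one, so the shift toward 0 follows from the choice.

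Over the 6 libraries, Pearson's r of log2(value + 1), given as a description, was 0.91 between Fkbp10 and P4ha2. It was 0.997 between P4ha1 and P3h1, 0.98 between Serpinh1 and P4ha1, and 0.98 between Serpinh1 and P3h1. P4ha2 was less like its sister subunit P4ha1 (0.47) and Serpinh1 (0.45). The lowest of the 45 pairs was Plod1 with Plod3 (0.07). All points share the same libraries and size factors, and wild type libraries 1 and 2 are nearly 1 point.

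**Figure D3:**
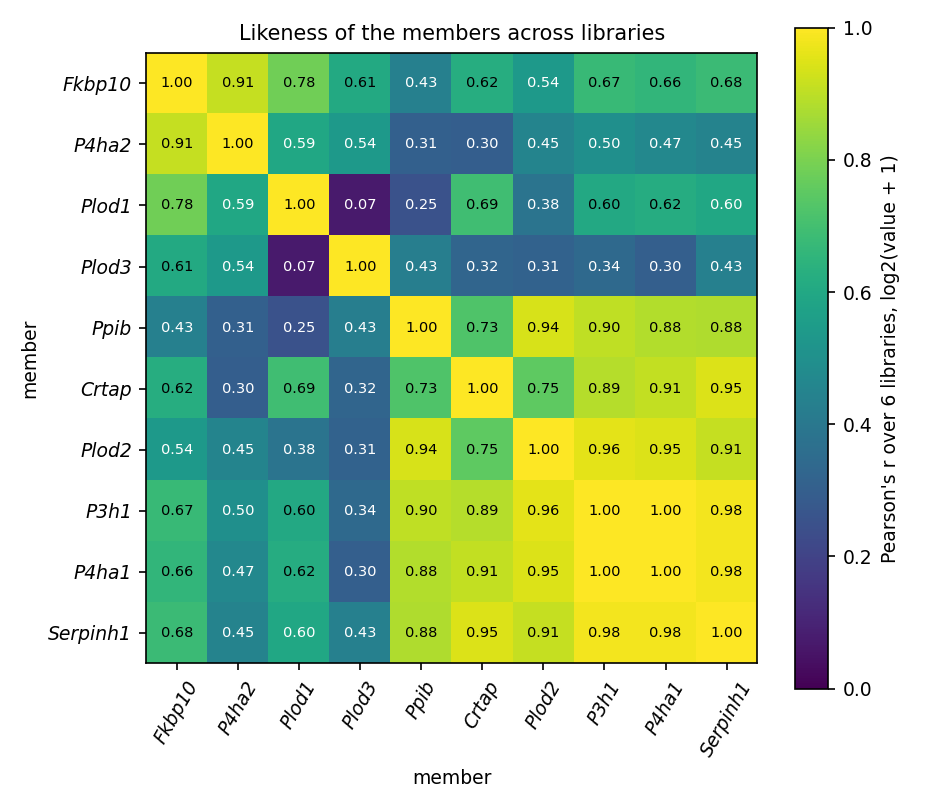
Pearson's r over the 6 libraries, on log2(value + 1), for each pair of the 10 genes (rows and columns; colour from 0 to 1, with the value printed in each cell). Serpinh1, P4ha1, P3h1, Plod2, Crtap and Ppib form a bright block at the lower right, and Fkbp10 and P4ha2 a bright pair at the upper left with 0.91. The order of the genes was set by hand, so where the block and the pair lie follows from it. With the members other than P4ha2, Fkbp10 stood between 0.43 (Ppib) and 0.78 (Plod1).

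By the same measure, the 6 genes most like Fkbp10 among the 5688 tested genes with a range of at least 1 on the log2 scale were Eno2, Mcf2l, Dnah12, Dnah1, Arhgef10 and 5031434O11Rik, with r from 0.986 to 0.998. Fkbp10 itself, at 2306 to 4453, falls just short of that range. Genes that vary as little as Fkbp10 were therefore not among the candidates. Eno2, the neuronal form of the glycolytic enzyme enolase, was at 855, 763 and 743 normalized counts under the wild type label and at 408, 421 and 530 under the knockout label. Mcf2l was at 202, 201 and 177 against 79.6, 93.0 and 102, and Arhgef10 at 1839, 1767 and 1651 against 879, 1079 and 1177. In each of the 6 genes the groups did not overlap, which follows in part from the choice by likeness to Fkbp10. Dnah1 and Dnah12 encode dynein heavy chains, and Dnah12 rested on 2 to 19 reads per library.

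Levels were compared between genes per kilobase of annotated exon. The length used joins all annotated exons of a gene, for example 3305 bases for Ppib and 6239 for P4ha2, and is not that of 1 transcript. The order below therefore depends on the annotation and is only a rough guide to relative abundance. Under the wild type label the order of mean levels was Serpinh1 (18197 normalized counts per kilobase), P4ha1 (3199), Plod2 (1665), Fkbp10 (1429), P4ha2 (1042), Ppib (732), P3h1 (669), Crtap (621), Plod3 (437) and Plod1 (262). Serpinh1 stood above P4ha1 in all 6 libraries, and so did P4ha1 above Plod2, Fkbp10 above P4ha2, Crtap above Plod3 and Plod3 above Plod1. Plod2 stood above Fkbp10, Ppib above P3h1 and P3h1 above Crtap in 5 of 6 libraries. P4ha2 and Ppib could not be ordered, since P4ha2 was above Ppib in 3 of 6 libraries. Under the knockout label Ppib (688) stood above P4ha2 (619) in the mean and the rest of the order was the same.

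Ratios within a library do not depend on its size factor. The 9 ratios were compared by an exact two-sided permutation test, whose smallest p with 3 libraries against 3 is 0.1, so no ratio could pass 0.05. The ratios were chosen after their values were seen, so their p-values are descriptions only. The test also counts wild type libraries 1 and 2, which are nearly alike, as separate. The summed level of Col1a1 and Col1a2, the type I collagen chains, over that of Serpinh1 was 0.440, 0.456 and 0.671 under the wild type label and 0.193, 0.255 and 0.229 under the knockout label (exact permutation p = 0.1, 0.225 adjusted over the 9 ratios). All 3 libraries under the knockout label held less type I chain per unit of Serpinh1 than any wild type library. For Col4a1, a basement membrane chain, over Serpinh1 the ratio went the other way, at 0.144, 0.146 and 0.131 against 0.202, 0.148 and 0.232 (exact permutation p = 0.1, adjusted 0.225). The groups were only narrowly apart here, at 0.146 in wild type library 2 and 0.148 in Shox2-/- library 2. No counting error was computed for any ratio. Type I chains over Fkbp10 gave 4.72, 4.95 and 11.4 against 2.68, 4.55 and 3.17, again narrowly without overlap (exact permutation p = 0.1, adjusted 0.225). Within the complex, Ppib over P3h1 was 1.20, 1.20 and 0.947 against 1.65, 1.33 and 1.25 (exact permutation p = 0.1, adjusted 0.225), whereas P3h1 over Crtap was 1.10, 1.10 and 1.04 against 0.852, 1.18 and 1.11 and overlapped (exact permutation p = 1). P4ha1 over P4ha2 overlapped too, at 2.34, 2.22 and 5.53 against 3.33, 4.11 and 3.32 (exact permutation p = 0.6, adjusted 0.771). Fkbp10 over Serpinh1 was 0.0932, 0.0922 and 0.0588 against 0.0720, 0.0560 and 0.0722 (exact permutation p = 0.3, adjusted 0.54). Plod2 over Plod1 and over Plod3 overlapped between the groups as well.

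**Figure D4:**
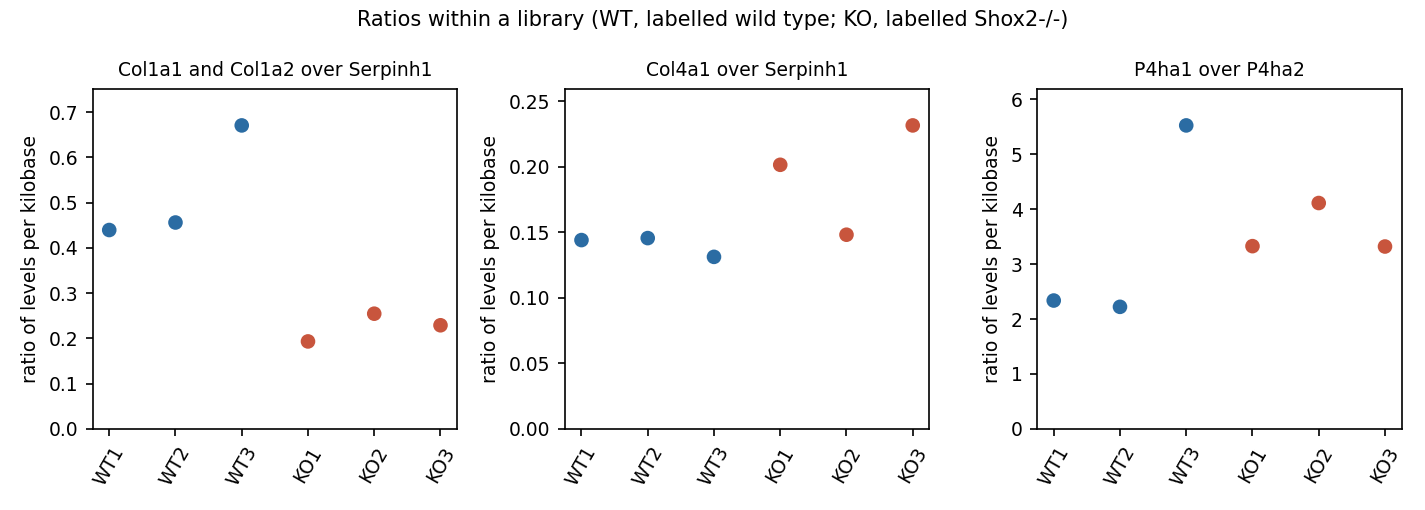
Ratio of levels per kilobase (vertical axis, from 0, no unit) within each wild type (WT, blue) and Shox2-/- (KO, red) library for type I collagen chains over Serpinh1, Col4a1 over Serpinh1, and P4ha1 over P4ha2. The blue points lie above the red ones in the first panel (0.440 to 0.671 against 0.193 to 0.255). In the second they lie below them, but narrowly, with WT2 at 0.146 and KO2 at 0.148. WT3 stands alone at 5.53 in the third.

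The other genes of the route from ribosome to collagen fibril were counted in the same way, and 0 genes of any list were called by limma over all genes. Of 13 other collagen folding and modifying genes, 11 were lower and 2 higher (median log2 difference -0.35). At an unadjusted p under 0.05, where 7.23% of all genes tested were lower and 6.92% higher, 5 of the 13 were lower and 1 higher. The lowest p belonged to P3h3, a prolyl 3-hydroxylase family member, at 1085, 980 and 1247 normalized counts against 414, 550 and 722 (-1.004, SE 0.21, limma adjusted p = 0.205). Sparc, a collagen-binding matrix protein, was at -0.73 (SE 0.21), and the ER proline isomerases Fkbp9 and Fkbp7, relatives of Fkbp10, at -0.33 (SE 0.13) and -0.96 (SE 0.37). Colgalt2, a collagen galactosyltransferase, was among the 2 that were higher (0.56, SE 0.22).

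Fibrillar collagen chains, the main substrates, were lower in 11 of 11 cases with a median of -0.65. At an unadjusted p under 0.05, 5 of them were lower, where 7.23% of all genes tested were. Col1a1 was at 21616, 21207 and 32094 normalized counts against 7028, 11792 and 11450, a log2 difference of -1.32 (SE 0.25, limma adjusted p = 0.183). Col1a2 was at 48014, 47685 and 129358 against 12910, 24814 and 17051 (-1.92, SE 0.42), and Col3a1 at -0.98 (SE 0.27). In all 3 chains the groups did not overlap, and wild type library 3 was the highest library, as in Serpinh1 and P4ha1. These 3 have the lowest p of the list. Over the whole list, 6 of 11 chains were lower without overlap, where 10.8% of all genes tested were. Of 7 basement membrane chains tested, 6 were lower (median -0.37), while Col4a1 differed by -0.02 (SE 0.18).

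Genes of procollagen export were lower in 14 of 15 entries with a median of -0.19, and only Kdelr3, a retrieval receptor of the ER, had an unadjusted p under 0.05 (-0.86, SE 0.31). Of 12 genes of procollagen cleavage and crosslinking tested, 9 were lower and 3 higher (median -0.30), with Loxl4, a lysyl oxidase relative, at -1.33 (SE 0.45).

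Other lists share a compartment or an enzyme fold with the members but are not specific to collagen. General ER chaperones were lower in 4 and higher in 10 of 14 cases (median 0.036). Hspa5, the main ER chaperone, was at 33697 ± 5583 and 34436 ± 1163 (SD, n = 3 each), and Sdf2l1, an ER stress gene, at 0.41 (SE 0.15). FK506-binding proteins outside the ER were lower in 4 and higher in 4 of 8 cases, with Fkbp5 at 0.47 (SE 0.15) and Fkbp1a at 0.33 (SE 0.14). Cyclophilins other than Ppib were lower in 3 and higher in 9 of 12 cases (median 0.15), with Ppil1 at 0.28 (SE 0.10). Whether the members differ from these lists was not tested. Hypoxia-induced genes, counted because hypoxia is known to raise P4ha1, P4ha2 and Plod2, were lower in 13 and higher in 3 of 16 cases (median -0.11), with 0 at an unadjusted p under 0.05 in either direction and 0 without overlap.

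**Figure D5:**
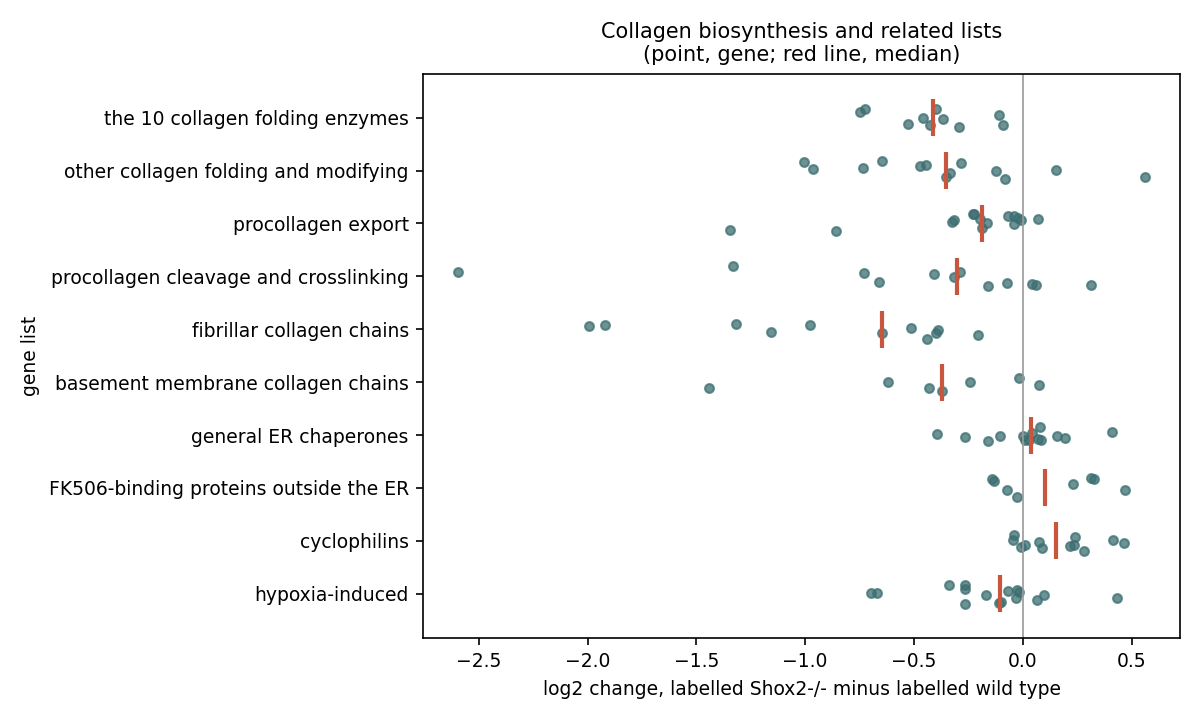
Log2 difference (horizontal axis, libraries labelled Shox2-/- minus libraries labelled wild type) of each tested gene (points) in the 10 members and 9 other lists (rows), with the list's median as a red line. The medians of the members (-0.41), the other collagen folding genes (-0.35) and the fibrillar chains (-0.65) lie left of 0, and those of the general ER chaperones (0.036) and cyclophilins (0.15) right of it.

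Markers of other cell types were summed in the same libraries. Each sum mostly follows its most abundant genes and can hide the others. Summed over 10 mesenchyme and fibroblast markers, the level was 93270 to 108001 under the wild type label and 58626 to 96793 under the knockout label, with 5 of the 9 tested markers lower. Dcn and Lum, matrix proteoglycans of fibroblasts, were highest in wild type library 3 (13277 and 21781) and lowest in Shox2-/- library 1 (512 and 2576), as were Serpinh1, P4ha1 and P3h1. Other markers of the same list ran the opposite way: Pdgfra, Pdgfrb and the transcription factor Twist1 were lowest in wild type library 3 (8389, 2639 and 1008) and highest in Shox2-/- library 1 (14844, 4663 and 4443). Smooth muscle markers summed to 42522 to 49284 against 39168 to 48993, with 3 of 4 lower. Most of that sum was Acta2, at 36376 to 38286 against 32856 to 42742. Myh11 (-1.57, SE 0.32) and Cnn1 (-0.76, SE 0.19) were lower without overlap, 2 of the 4, where 10.8% of all genes tested were. Visceral endoderm markers summed to 6765 to 9909 against 529 to 6718, with 4 of 4 lower. These sums were only narrowly apart, and 1 of the 4, Afp, was lower without overlap. Apob in Shox2-/- library 2 (4720) lay above every wild type library. Epithelial markers summed to 7120 to 10868 against 4881 to 13765, with 6 of 6 lower. Of the 6 epithelial markers, 3 were lower without overlap, Cdh1, Cldn7 and Cldn6, although the epithelial sums overlapped. Chondrocyte and osteoblast markers summed to 470 to 1044 against 383 to 587, with 3 of the 4 tested lower. Parietal endoderm markers summed to 18530 to 19616 against 19104 to 22081, with 5 of 8 lower, and endothelial markers to 3516 to 13666 against 7946 to 12022, with 3 of 5 lower. Cardiomyocyte markers summed to 3374 to 7754 against 2422 to 6973, with 5 of 6 lower, and pacemaker markers, Shox2 among them, to 1238 to 1371 against 1815 to 3247, with 1 of 5 lower. No marker in these lists was at 0 in every library. The part of these markers in the members' differences was not tested, and in bulk libraries fewer cells of a type and less RNA per cell cannot be told apart.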

How the data were processed

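Gene expression was measured by RNA sequencing of total RNA (500 ng per sample, TRIzol, Illumina HiSeq 2000, per the labels' protocols). The submitters' processing notes name CASAVA 1.8.2, BWA, HTSeq, DESeq2 1.14.0 and mm10, with no role or order. The deposited values are normalized counts with a decimal comma: the values show whole reads scaled by 1 factor in each library, and undoing it returned whole numbers for 100% of values within 0.1 read. Strandedness is not given in the sources used here, so reads of overlapping genes cannot be told apart. Positions and exon lengths are from GENCODE M21 (GRCm38), in which 30484 of 30631 listed IDs were found.

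Values were tested as log2(value + 1) with limma 3.58.1 in R 4.3.3 (1 group term, empirical Bayes with trend, two-sided, Benjamini-Hochberg), on 17034 genes with at least 10 in at least 3 libraries. Fold changes of low genes come out too small on this scale. The script was tested on simulated data. Counting error covers sampling of reads only. Ratios used exact permutation tests in SciPy 1.17.1.

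The members, lists and rules were chosen with earlier results of these data known. The text names all members, up to 4 genes per list with the lowest p, Shox2, Alcam, Col1a1, Col1a2, Col3a1, Col4a1, P4hb, Hspa5, Colgalt2 and some marker genes. It also names the 6 genes most like Fkbp10, and the tested genes that overlap a member or start within 1000 bases of it. P4hb, Hspa5, Colgalt2 and the markers Myh6, Tnnt2, Nkx2-5, Postn, Dcn, Pdgfra and Pdgfrb were chosen after their values were seen, as were the ratios. Alternatives were other scalings, pseudocounts, filters, left-out libraries, a Diff9 term and limma voom.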

Additional observations from a re-analysis of the deposited data

How the results depend on the processing

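Fkbp10 was lower under all 17 alternatives, by -0.82 to -0.66 on the log2 scale, with limma adjusted p from 0.0176 to 0.514; it passed the threshold only under voom with sample quality weights, at -0.73, as did P4ha2 there. Leaving out 1 library at a time gave -0.82 to -0.66 for Fkbp10, with adjusted p from 0.140 to 0.514. The number of genes called was 0 except for 2 with no filter (30282 genes tested), 51 without Shox2-/- library 2 (0 to 51 over the libraries left out in turn) and 303 under voom with sample quality weights; the cause was not tested. The members' median was -0.54 to -0.26 over the libraries left out in turn (-0.26 without wild type library 3) and -0.14 without both wild type library 3 and Shox2-/- library 1, where Plod2 (0.027) and Ppib (0.019) changed sign; that alternative was added after seeing the data, and its choice fixes that most members shrink. The number of lower members was 8 to 10, and 5 (equal library totals) to 9 (without Shox2-/- library 2) had groups that did not overlap. With a library left out, any gene's groups separate more easily. The share over all genes tested was not computed for these alternatives, so these counts have no background beside them. The titles of wild type libraries 1 and 2 and of Shox2-/- library 3 hold Diff9, a number whose meaning is not stated. A term for these libraries gave -0.66 for Fkbp10 (limma adjusted p = 0.196). The planned count tests of other packages were not run. No paired analysis was possible because the labels give no replicate numbers shared between the groups. Each member's value rests on at least 458 reads, but counting error exceeds the gap between the groups in 3 of the 7 members without overlap.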

Other observations

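Some members lie next to other genes or overlap them. Overlaps below are between whole gene spans, not exons, and how reads in them were counted is not known. P3h4, a non-catalytic member of the prolyl 3-hydroxylase family, starts 861 bases from Fkbp10 on the opposite strand and does not overlap it. It was at 3021, 2873 and 2718 normalized counts under the wild type label and at 1574, 2761 and 2151 under the knockout label, and the groups overlapped. Its log2 difference was -0.44 (SE 0.20, limma adjusted p = 0.359). Nt5c3b, which overlaps Fkbp10 by 2504 bases on the opposite strand, differed by 0.04.

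AU022252, whose start lies 203 bases from that of P3h1 without an overlap, differed by 0.20 (SE 0.17) where P3h1 was lower. Znhit1 overlaps Plod3 by 1003 bases and differed by 0.02, Snx22 overlaps Ppib by 1448 bases and differed by -0.16, and 4930520O04Rik, at 18 to 35 normalized counts, overlaps Crtap by 2096 bases and differed by -0.41.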
